A study of Arabidopsis thaliana with 25 samples.

Results

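The 10 genes described here make, export or control the waxy surface layer of Arabidopsis thaliana, or carry lipids across the cell wall. They were taken by name from 38676 plant entries in a table of RNA-seq counts. The rule uses no measured value, but the genes were chosen with earlier results of these data known. They comprise 2 fatty acid elongases (KCS1 and CER6), 2 genes of the alkane branch (CER1 and CER3), 1 of the alcohol branch (CER4), 1 wax ester synthase (WSD1), 3 lipid transfer proteins (LTPG1, LTP1 and LTP2) and 1 transcription factor (MYB96). All 25 libraries came from cotyledons (seed leaves) dissected from wild-type seedlings after acetone fixation, with Drosophila cells added before RNA extraction. The dark group (D) had grown for 5 days in darkness on half-strength MS medium. Other seedlings grown in darkness in the same way were then given continuous light for 1 h, 6 h or 24 h. The group L had grown for 5 days in long days. Each group had 5 libraries, labelled as biological replicates 1 to 5; the labels do not say whether they were grown separately, so p-values cover only the variation among these samples. No dark group was kept for as long as the lit ones, so light cannot be told apart from age or time of day, and L also differs from 24 h in age and day length.

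The cuticle covers the aerial epidermis and limits water loss. Its waxes begin as very-long-chain fatty acids, which an elongase complex builds on the endoplasmic reticulum and in which a 3-ketoacyl-CoA synthase sets the chain length. An alkane-forming branch, with CER3 and CER1, then gives aldehydes and alkanes, while an alcohol-forming branch, with CER4 and WSD1, gives primary alcohols and wax esters. Membrane transporters and lipid transfer proteins take part in moving these lipids to the surface, and MYB96 is an activator of wax synthesis genes known for its response to abscisic acid and drought.

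Levels below are spike-scaled CPM, the usual library-size normalised count, in which a library's size is set by its Drosophila counts, so that a gene's level is read against the added fly cells and not against the rest of the plant RNA. Libraries held 17901840 to 24085995 counts, of which Drosophila genes had 42861 to 964232. The Drosophila counts were 42861 to 91510 in L and 254305 to 964232 in dark, and plastid genes took 0.549% to 16.0% of plant counts over all libraries. A second scaling, TMM over Arabidopsis genes, centres the typical plant gene and so reads a gene relative to other plant genes. The median log2 fold change of all 20615 tested genes over dark was 0.03 after 1 h, 0.56 after 6 h, 1.19 after 24 h and 2.35 in L on the spike scale, and between -0.04 and 0.01 on the TMM scale. A gene that only kept pace with other plant genes therefore appears 2.35 higher in L on the spike scale. A call below means a Benjamini-Hochberg adjusted p under 0.05 in edgeR's quasi-likelihood test over all 20615 genes.

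The genes lie on 4 chromosomes in the TAIR10.1 assembly. LTP2 (AT2G38530, chr2:16128176-16129399) and LTP1 (AT2G38540, chr2:16130290-16131240) are neighbours on the plus strand, 890 bases apart with 0 annotated genes between them. Of their exonic 31-base words they share 10, which is 0.95% of those of LTP2 and 1.3% of those of LTP1. On chromosome 1 lie KCS1 (AT1G01120, chr1:57164-59215, minus strand), CER1 (AT1G02205, chr1:418416-422579, plus strand), LTPG1 (AT1G27950, chr1:9740508-9742159, plus strand) and CER6 (AT1G68530, chr1:25712414-25715024, minus strand). On chromosome 5 lie WSD1 (AT5G37300, chr5:14767426-14770396, plus strand), CER3 (AT5G57800, chr5:23420184-23424117, plus strand) and MYB96 (AT5G62470, chr5:25078991-25081141, minus strand). CER4 (AT4G33790, chr4:16204096-16207956, minus strand) lies on chromosome 4. LTPG1 overlaps AT1G27960 on the other strand; the libraries are stranded, but the sources used here do not state whether the counting used strand, so reads of the overlap may belong to either gene. MYB96 shares 2.35% of its exonic 31-base words with MYB94 (AT3G47600). A read lying wholly within such shared sequence cannot be assigned to one of the pair.

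The 250 bases upstream of the annotated gene start are printed for the neighbouring pair LTP2 and LTP1, whose levels moved in opposite directions, and for CER6 and MYB96, which hold a searched motif. They read 5′ to 3′ on the gene's own strand, from RefSeq's TAIR10.1 sequence, at chr2:16127926-16128175 for LTP2, chr2:16130040-16130289 for LTP1, chr1:25715025-25715274 for CER6 and chr5:25081142-25081391 for MYB96. Capitals mark matches on either strand to the G-box CACGTG, the L1 box TAAATGCA or TAAATGTA, the MYB words TAACTA or TAACTG, and the GCC box GCCGCC.
LTP2: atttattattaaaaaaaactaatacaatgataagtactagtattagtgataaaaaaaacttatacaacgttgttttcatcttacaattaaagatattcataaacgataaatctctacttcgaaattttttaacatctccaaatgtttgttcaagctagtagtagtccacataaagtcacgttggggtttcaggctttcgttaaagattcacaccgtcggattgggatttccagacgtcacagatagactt
LTP1: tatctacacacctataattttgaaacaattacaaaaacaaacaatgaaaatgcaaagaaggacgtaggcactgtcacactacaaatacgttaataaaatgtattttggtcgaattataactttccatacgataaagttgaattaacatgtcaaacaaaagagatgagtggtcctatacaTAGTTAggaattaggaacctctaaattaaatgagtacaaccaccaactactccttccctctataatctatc
CER6: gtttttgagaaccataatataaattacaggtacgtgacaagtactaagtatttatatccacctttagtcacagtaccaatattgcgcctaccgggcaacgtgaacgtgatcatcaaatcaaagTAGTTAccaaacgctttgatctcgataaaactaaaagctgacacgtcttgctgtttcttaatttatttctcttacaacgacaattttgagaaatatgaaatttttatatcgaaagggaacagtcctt
MYB96: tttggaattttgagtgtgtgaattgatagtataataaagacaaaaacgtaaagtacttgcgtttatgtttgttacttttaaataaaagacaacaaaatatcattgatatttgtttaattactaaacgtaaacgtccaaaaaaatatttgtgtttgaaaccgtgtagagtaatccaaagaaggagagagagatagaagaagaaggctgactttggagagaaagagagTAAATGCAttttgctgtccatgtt
The LTP2 window held none of these words. The LTP1 window held TAACTA on the strand opposite the gene, first base at -71 from the gene start. The CER6 window held the same word, also on the strand opposite the gene, at -127. The MYB96 window held TAAATGCA on the gene's own strand at -24. Among 27437 protein-coding promoters of this length, 6.49% held a G-box, 4.49% an L1 box, 26.9% a MYB word and 1.87% a GCC box. Among the 10 genes the numbers were 0, 1, 2 and 0, which describes these windows and no binding.

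Over dark, 4 of the 10 genes were called higher at 6 h, 5 at 24 h and 6 in L, beside 21.4%, 50.3% and 84.9% of all tested genes, and 0 at 1 h, beside 3.06%. Within the lipid transfer proteins 2 large movements ran against each other. In L over dark LTP1 rose by 4.74 on the log2 scale while its neighbour LTP2 fell by 6.18. With TMM scaling the log2 values were 2.76 for LTP1 and -8.20 for LTP2. CER1 fell in L while its alkane branch partner CER3 rose. KCS1, CER6, CER3, LTPG1 and LTP1 rose over dark at 24 h and in L, MYB96 was called higher over dark in L alone of the comparisons with dark, and CER4 and WSD1 were almost without counts. Because these are whole cotyledons, fewer cells of a type and less RNA per cell cannot be told apart.

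**Figure D1:**
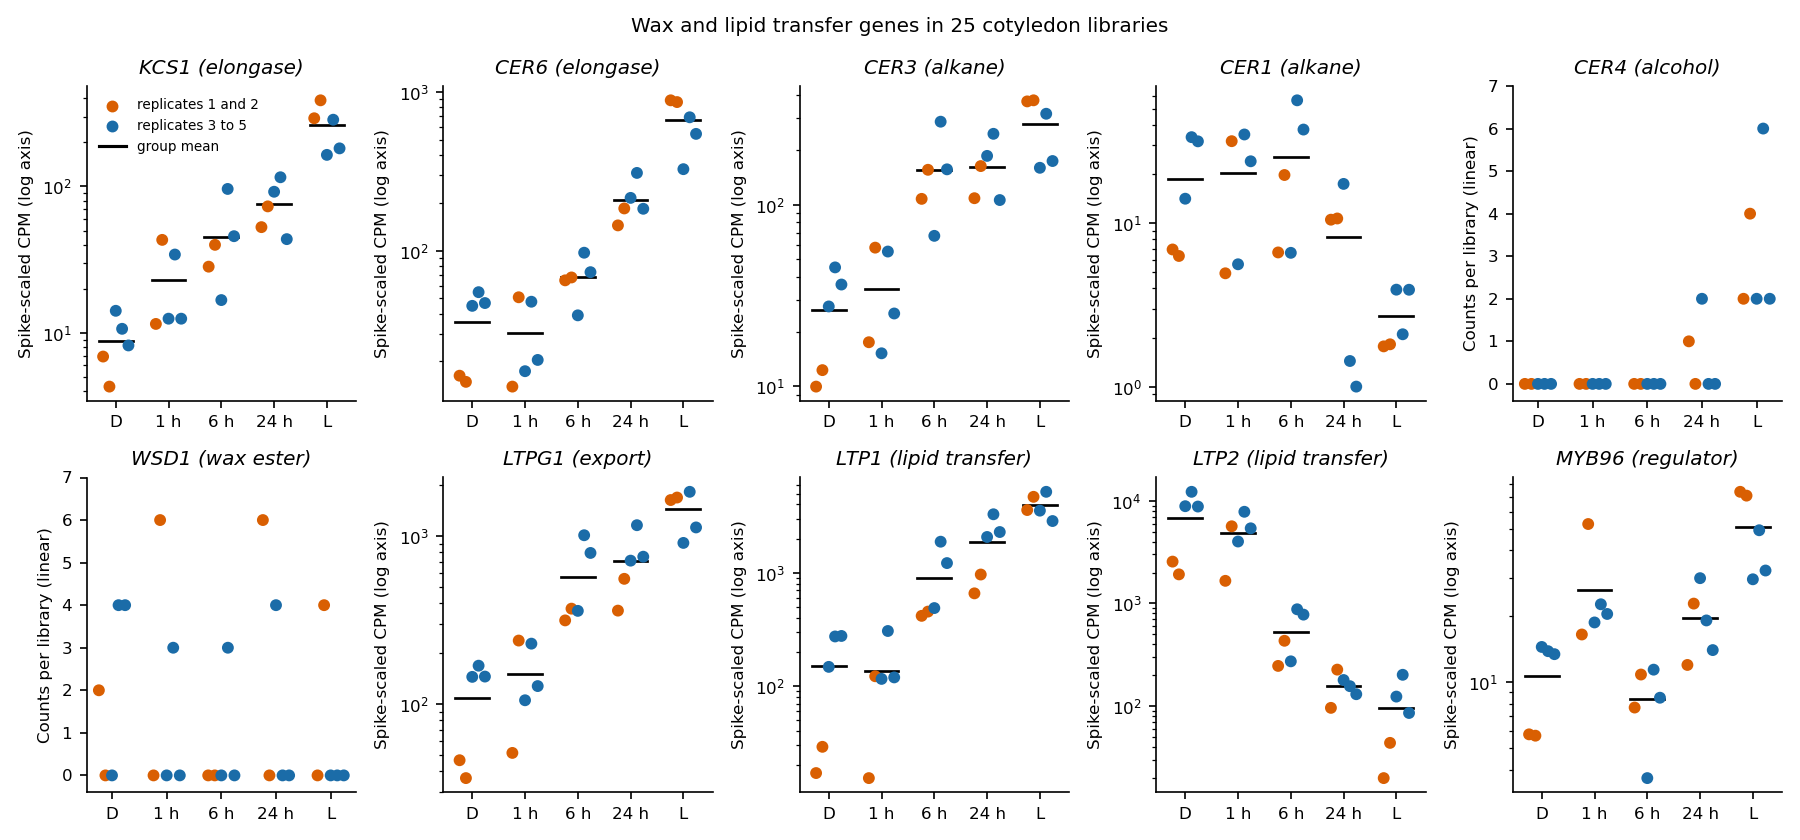
Level of each gene in each library, by group on the x axis. The y axis is spike-scaled CPM on a log axis for 8 genes, and raw counts on a linear axis for CER4 and WSD1. Each point is 1 library, coloured by replicate set, and the bar is the group mean. From 6 h on LTP2 lies below and LTP1 above its dark libraries, while CER4 has counts in 2 libraries at 24 h and in all 5 of L.

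KCS1 encodes a 3-ketoacyl-CoA synthase, the condensing enzyme of fatty acid elongation. It had 6.89, 4.3, 14.2, 10.7 and 8.21 spike-scaled CPM in the dark libraries of replicates 1 to 5, and 11.5, 43.2, 12.5, 34.3 and 12.5 CPM at 1 h. After 6 h it had 28.3, 39.9, 16.8, 96.1 and 45.7 CPM, after 24 h 52.7, 73.1, 92.0, 115.5 and 43.7 CPM, and in L 292, 387, 164, 285 and 182 CPM. Every library from 6 h on, L included, was above every dark library, whereas 1 h overlapped dark. The log2 fold change over dark was 2.36 ± 0.49 at 6 h (SE; adjusted p = 0.000496, edgeR), 3.09 ± 0.51 at 24 h (adjusted p = 8.11e-06) and 4.89 ± 0.55 in L (adjusted p = 3.50e-09). At 1 h the value was 1.36 ± 0.48 with an adjusted p of 0.124 on the spike scale and 1.10 ± 0.28 with an adjusted p of 0.00740 on the TMM scale, so the call depended on the scaling.

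CER6 encodes the condensing enzyme known for the longest wax precursors of stems and leaves. Its levels were 16.3, 14.9, 44.8, 54.7 and 46.7 spike-scaled CPM in dark and 13.9, 50.8, 17.4, 47.6 and 20.4 CPM at 1 h. They were 64.9, 67.7, 39.1, 96.9 and 73.1 CPM at 6 h, 144, 184, 215, 309 and 183 CPM at 24 h, and 885, 863, 326, 692 and 544 CPM in L. The dark, 1 h and 6 h libraries overlapped, and those of 24 h and L lay above all of them. CER6 rose over dark by 2.55 ± 0.48 at 24 h (log2, SE; adjusted p = 5.45e-05, edgeR) and by 4.22 ± 0.52 in L (adjusted p = 1.49e-08), and at 6 h it was 0.95 ± 0.46 higher without passing (adjusted p = 0.121). On the TMM scale the 6 h value was 0.46 ± 0.16 and passed (adjusted p = 0.0154).

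The balance between the 2 elongases was read within each library as the log2 ratio of counts, which needs no scaling between libraries. CER6 exceeded KCS1 by 1.91 ± 0.52 in dark (log2, SD, n = 5), 0.43 ± 0.19 after 1 h, 0.77 ± 0.49 after 6 h, 1.5 ± 0.33 after 24 h and 1.32 ± 0.27 in L. The values at 1 h, 0.23 to 0.71, and at 6 h, 0.01 to 1.22, lay below all dark values, 1.24 to 2.51. The ratio was lower by 1.48 ± 0.25 at 1 h than in dark (SE; exact two-sided permutation p = 0.00794, the smallest 5 against 5 libraries allow; adjusted p = 0.0139 over 28 ratio tests) and by 1.14 ± 0.32 at 6 h (exact permutation p = 0.00794, adjusted p = 0.0139). It was higher at 24 h than at 6 h by 0.73 ± 0.26 with the same exact permutation p; leaving out 24 h replicate 1, 2, 4 or 5 in turn raised the adjusted exact p above the threshold, with differences of 0.58 to 0.77. L differed from dark by -0.59 ± 0.26, with an exact permutation p of 0.0476 and an adjusted p of 0.0741.

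CER3 and CER1 are partners in alkane formation; CER1 is the aldehyde decarbonylase-like protein and CER3 the protein thought to supply its substrate. CER3 had 9.97, 12.3, 27.5, 45.2 and 36.4 spike-scaled CPM in dark and 17.5, 58.0, 15.2, 55.2 and 25.2 CPM at 1 h. It had 107.7, 156, 67.4, 287 and 157 CPM at 6 h, 109, 163, 186, 246 and 106 CPM at 24 h, and 371, 376, 160, 317 and 174 CPM in L. All libraries from 6 h on lay above all dark libraries, and 6 h and 24 h overlapped each other. CER3 rose over dark by 2.56 ± 0.51 at 6 h (log2, SE; adjusted p = 0.000268, edgeR), 2.62 ± 0.51 at 24 h (adjusted p = 8.47e-05) and 3.41 ± 0.53 in L (adjusted p = 9.58e-07). As a share of plant counts it was highest at 6 h, at 0.0169% ± 0.0044 against 0.00505% ± 0.00082 in dark (SD, n = 5 each).

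CER1 took another course. It had 6.91, 6.31, 14.1, 33.6 and 31.7 spike-scaled CPM in dark, 4.94, 31.7, 5.61, 34.9 and 23.9 CPM at 1 h, and 6.63, 19.7, 6.59, 56.4 and 37.4 CPM at 6 h. At 24 h it had 10.5, 10.7, 17.4, 1.44 and 1.00 CPM, and in L 1.77, 1.82, 3.93, 2.10 and 3.92 CPM. All 5 L libraries lay below all dark libraries, while the 24 h libraries split: replicates 4 and 5 held 12 and 13 counts, and replicates 1 to 3 held 157 to 260. CER1 fell by 2.75 ± 0.72 in L over dark (log2, SE; adjusted p = 0.000747, edgeR), against a rise of 2.35 in the median tested gene. At 24 h the value was -1.16 ± 0.66 and did not pass (adjusted p = 0.130). It was 0.68 in replicates 1 and 2 alone and -1.98 in replicates 3 to 5 alone. The latter set, which the labels do not define, holds the low libraries of replicates 4 and 5. Its adjusted p of 0.0480 (edgeR) is therefore not separate evidence of a fall. On the TMM scale CER1 fell by 2.00 ± 0.63 at 24 h (adjusted p = 0.0102) and was at -4.75 ± 0.74 in L (adjusted p = 8.49e-06).

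The within-library log2 ratio of CER3 to CER1 showed the parting of the 2 genes without any scaling. Its mean was 0.62 ± 0.34 in dark, 0.97 ± 0.68 after 1 h, 2.95 ± 0.78 after 6 h, 4.95 ± 1.91 after 24 h and 6.64 ± 1.16 in L (SD, n = 5). All values at 6 h (2.07 to 4.02), 24 h (3.37 to 7.36) and L (5.33 to 7.64) lay above the dark values of 0.20 to 0.96. The ratio was higher than in dark by 2.34 ± 0.38 after 6 h, 4.33 ± 0.87 after 24 h and 6.02 ± 0.54 in L, a 65.1-fold difference in L (SE; exact permutation p = 0.00794 and adjusted p = 0.0139 in each). Within replicates 1 and 2 the 24 h difference was 2.90, and within replicates 3 to 5 it was 5.28. Neither 24 h over 6 h (2.00 ± 0.92, exact permutation p = 0.0635) nor L over 24 h (1.69 ± 1.00, exact permutation p = 0.127) passed.

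CER4, the fatty acyl-CoA reductase that makes primary alcohols, had 0 counts in all 15 libraries of dark, 1 h and 6 h. It had 1, 0, 2, 0 and 0 counts after 24 h and 2, 4, 2, 6 and 2 counts in L. Pooled over the group, L held 0.509 spike-scaled CPM. In dark 3 counts over the group, taken here as an upper limit for a count of 0, correspond to 0.0116 CPM. This limit and the 16 counts of L were taken as exact, without the spread between libraries. On that footing CER4 was at least 44.0-fold higher in L than in dark on the spike scale and at least 7.16-fold on the TMM scale. It was below the filter on low counts and was not among the tested genes; in a fit with no filter the adjusted p of L over dark was 0.000172 (edgeR). WSD1, the enzyme that esterifies alcohols into wax esters, was also below the filter, with 10 counts over the dark libraries, 9 over those of 1 h, 3 over those of 6 h, 10 over those of 24 h and 4 over those of L. No difference of WSD1 was detectable at this depth (no-filter adjusted p = 0.456 in L over dark, edgeR).

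LTPG1 is a lipid transfer protein held at the plasma membrane by a glycolipid anchor and known for its part in wax export. Its spike-scaled CPM spanned 36.3 to 169 in dark (mean 108 ± 62, SD, n = 5), 51.2 to 239 after 1 h (150 ± 81), 314 to 1010 after 6 h (569 ± 314), 360 to 1159 after 24 h (708 ± 296) and 909 to 1831 in L (1439 ± 399). The dark range lay below the ranges of 6 h, 24 h and L. The rise over dark was 2.39 ± 0.52 at 6 h (log2, SE; adjusted p = 0.000727, edgeR), 2.71 ± 0.53 at 24 h (adjusted p = 8.36e-05) and 3.73 ± 0.55 in L (adjusted p = 4.34e-07). Per kilobase of exon it was among the more abundant plant transcripts in every group, at rank 270 of 37269 genes in L and 527 in dark.

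LTP2 and LTP1 encode small secreted proteins that bind lipids in the cell wall. LTP2 was one of the most abundant transcripts of dark cotyledons. In spike-scaled CPM it had 2556, 1919, 8870, 12250 and 8802 in dark, 1660, 5649, 4014, 7824 and 5398 at 1 h, and 246, 432, 272, 876 and 777 at 6 h. At 24 h it had 95.8, 226, 179, 156 and 130.2 CPM, and in L 19.8, 43.7, 123, 201 and 85.4 CPM. The dark and 1 h libraries overlapped; every 6 h library lay below both, and every 24 h library lay below every 6 h library. In raw counts the L libraries held 112 to 1257 and the dark libraries 109857 to 346990. LTP2 took 0.00287% ± 0.00236 of plant counts in L, against 1.28% ± 0.41 in dark (SD, n = 5 each), and per kilobase of exon it ranked 3410 of 37269 genes in L, against 4 in dark.

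LTP2 fell by 3.72 ± 0.62 at 6 h over dark (log2, SE; adjusted p = 2.54e-05, edgeR), by 5.45 ± 0.68 at 24 h (adjusted p = 6.36e-08) and by 6.18 ± 0.70 in L (adjusted p = 3.37e-09). The fall in L was as large in replicates 1 and 2 alone (-6.14) as in replicates 3 to 5 alone (-6.19), and on the TMM scale it was -8.20 ± 0.65. At 6 h over 1 h the fall was 3.24 ± 0.61 (adjusted p = 0.000324). At 24 h over 6 h the value was -1.73 ± 0.57 with an adjusted p of 0.0566, and in a fit blocked on replicate number it was -1.54 ± 0.42 and passed (adjusted p = 0.0126).

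LTP1 went up from 6 h on, where LTP2 went down. It had 17.0, 29.1, 147, 274 and 276 spike-scaled CPM in dark, 15.4, 122, 115, 306 and 119 CPM at 1 h, and 416, 454, 487, 1878 and 1216 CPM at 6 h. At 24 h it had 657, 964, 2067, 3279 and 2286 CPM, and in L 3574, 4676, 3530, 5176 and 2858 CPM. Every library from 6 h on lay above every dark library. In dark, replicates 1 and 2 lay below replicates 3 to 5 in spike-scaled level for LTP1 and for each of the other 7 tested genes. Nuclear counts as a whole had the same order and it is not particular to these genes. They were 23.1 and 32.4 per Drosophila count in replicates 1 and 2, against 58.5 to 74.7 in replicates 3 to 5. LTP1 rose over dark by 2.58 ± 0.68 at 6 h (log2, SE; adjusted p = 0.00452, edgeR), 3.64 ± 0.71 at 24 h (adjusted p = 8.74e-05) and 4.74 ± 0.75 in L (adjusted p = 1.30e-06). Its rise in L was 7.48 in replicates 1 and 2 alone and 4.05 in replicates 3 to 5 alone.

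Within a library the 2 neighbouring genes exchanged places between 1 h and 6 h. The log2 ratio of LTP2 to LTP1 counts was 7.23, 6.05, 5.91, 5.48 and 4.99 in dark and 6.75, 5.53, 5.12, 4.68 and 5.50 at 1 h, so LTP2 exceeded LTP1 in all 10 of these libraries. It was -0.76, -0.07, -0.84, -1.10 and -0.65 at 6 h, -2.78, -2.09, -3.53, -4.39 and -4.13 at 24 h, and -7.49, -6.74, -4.84, -4.68 and -5.06 in L, so LTP1 exceeded LTP2 in all 15. The ratio differed from dark by -6.62 ± 0.41 after 6 h, -9.32 ± 0.57 after 24 h and -11.70 ± 0.68 in L, the last a 3315-fold change of the ratio (SE; exact permutation p = 0.00794 and adjusted p = 0.0139 in each). At 1 h the difference from dark was -0.42 ± 0.51 (exact permutation p = 0.452). It was -6.20 ± 0.39 at 6 h over 1 h, -2.70 ± 0.46 at 24 h over 6 h and -2.38 ± 0.71 in L over 24 h, each with an exact permutation p of 0.00794 and an adjusted p of 0.0139. The last of these was -4.68 in replicates 1 and 2 alone and -0.84 in replicates 3 to 5 alone. Counts of the 2 genes together took 0.113% of plant counts in L, against 1.3% in dark.

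**Figure D2:**
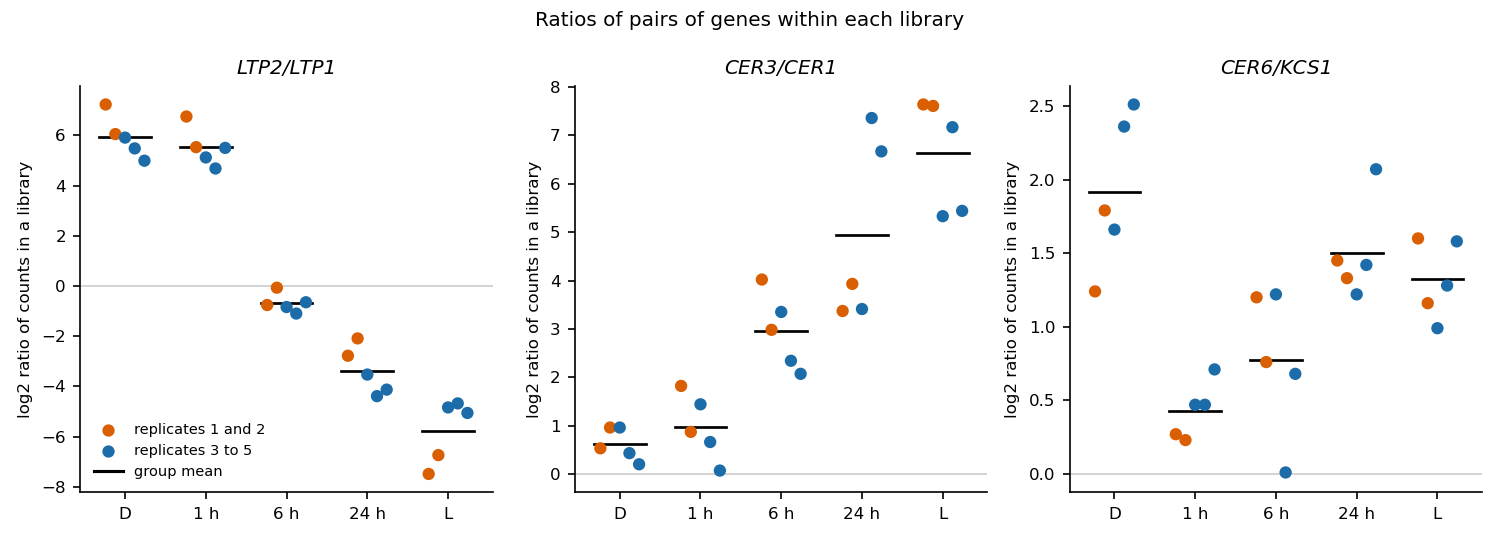
Log2 ratio of the counts of 2 genes in the same library (0.5 added to each count), by group on the x axis; points are libraries coloured by replicate set and bars are group means. The LTP2 to LTP1 ratio crosses 0 between 1 h and 6 h, the CER3 to CER1 ratio has a mean of 6.64 in L against 0.62 in dark, and the CER6 to KCS1 ratio is lowest at 1 h.

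MYB96 moved up and down. It had 5.79, 5.71, 14.5, 13.9 and 13.5 spike-scaled CPM in dark, 16.5, 52.8, 18.8, 22.7 and 20.5 CPM at 1 h, and 7.68, 10.9, 3.66, 11.4 and 8.51 CPM at 6 h. At 24 h it had 12, 22.9, 29.9, 19.2 and 14 CPM, and in L 74.1, 71.1, 29.5, 49.5 and 32.4 CPM. All 1 h libraries lay above all dark and all 6 h libraries, dark and 6 h overlapped, and all L libraries lay above all dark libraries. At 1 h over dark the value was 1.3 ± 0.43 (log2, SE) and did not pass on the spike scale (adjusted p = 0.0947, edgeR); without 1 h replicate 2 it was 0.88, and on the TMM scale it was 1.25 ± 0.23 and passed (adjusted p = 0.000382). MYB96 fell by 1.64 ± 0.44 at 6 h over 1 h (adjusted p = 0.00970). At 24 h over 6 h it was 1.22 ± 0.44 higher (adjusted p = 0.0758), and in a fit blocked on replicate number 1.24 ± 0.41 (adjusted p = 0.0347). In L it rose by 2.27 ± 0.45 over dark (adjusted p = 3.18e-05), close to the 2.35 of the median gene, and on the TMM scale the value was -0.20 ± 0.23 (adjusted p = 0.474), so its direction in L depended on the scaling. Its share of plant counts averaged 0.00510% at 1 h, against 0.00222% in dark, 0.000946% at 6 h and 0.00134% in L.

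Counts of the 10 genes are read here against all tested genes; 8 of the 10 passed the filter on low counts, and CER4 and WSD1 did not. At 1 h over dark 0 members were called higher and 0 lower, against 3.06% and 0.994% of all tested genes. At 6 h 4 were higher and 1 lower (21.4% and 5.05% of all), at 24 h 5 were higher and 1 lower (50.3% and 3.76%), and in L 6 were higher and 2 lower (84.9% and 1.96%). Since 84.9% of all genes were higher in L, the 6 higher members are near the background, while LTP2 and CER1 belong to the 1.96% that were lower. At 1 h, KCS1 and MYB96 had an unadjusted edgeR p under 0.05. The share of all tested genes under that unadjusted level is not given here, so no excess can be read from it. DESeq2 with Drosophila size factors called 1 higher, MYB96, beside 823 of all 20615 genes. The median log2 fold change of the 8 genes was 0.25 after 1 h, 1.65 after 6 h, 2.59 after 24 h and 3.57 in L, beside 0.03, 0.56, 1.19 and 2.35 for all tested genes.

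On the TMM scale, where the typical plant gene is level, the split differed. It was 2 higher and 0 lower at 1 h (8.94% and 5.21% of all tested genes), 5 and 2 at 6 h (26.9% and 25.9%), 5 and 2 at 24 h (27.0% and 27.8%), and 5 and 2 in L (28.6% and 28.1%). The 5 that were higher from 6 h on were KCS1, CER6, CER3, LTPG1 and LTP1, whose TMM values in L were 2.34, 1.84, 1.08, 1.43 and 2.76. LTP2 was lower at all 3 times, MYB96 at 6 h (-0.96 ± 0.23), and CER1 at 24 h and in L. In L, then, these 5 genes, LTP2 and CER1 were called in the same direction on both scales, and MYB96 on the spike scale alone. The share of all tested genes called alike on both scales is not given here.

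**Figure D3:**
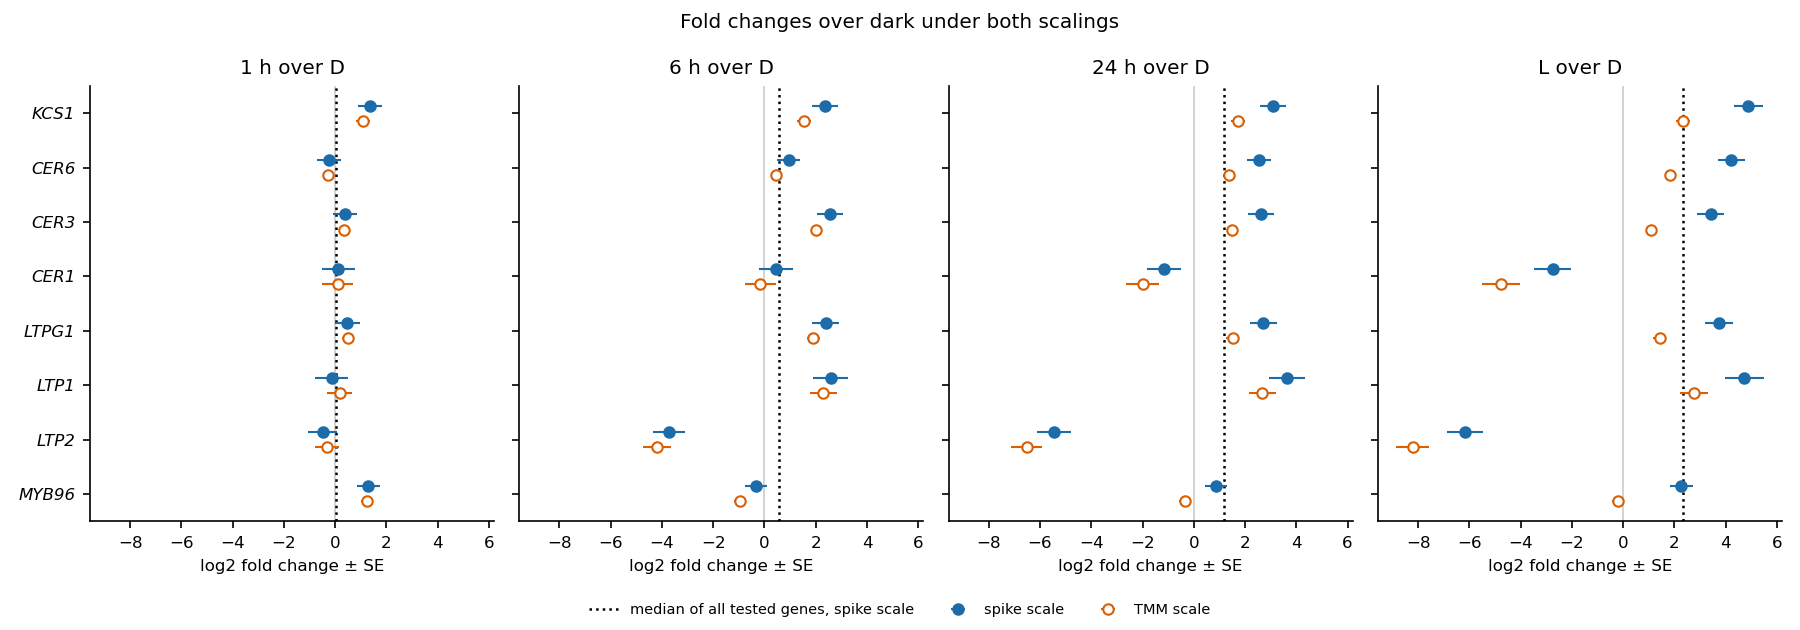
Log2 fold change over dark with its SE for the 8 tested genes, 1 panel per comparison; filled points are on the spike scale, open points on the TMM scale, and the dotted line is the median of all tested genes on the spike scale. In L, 5 genes lie right of 0 on both scales, LTP2 and CER1 lie left of 0 on both, and MYB96 has 2.27 on the spike scale and -0.20 on the TMM scale.

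Successive groups were compared in the same fit. In 6 h over 1 h, LTPG1 (1.92 ± 0.51), LTP1 (2.72 ± 0.68) and CER3 (2.18 ± 0.50) rose and LTP2 and MYB96 fell, 3 higher and 2 lower (13.6% and 3.12% of all tested genes; log2, SE, edgeR). CER6 was 1.19 ± 0.46 higher with an adjusted p of 0.0683, and in a fit blocked on replicate number 1.26 ± 0.42 with an adjusted p of 0.0225. In 24 h over 6 h, CER6 alone of the 8 was called, with a rise of 1.60 ± 0.46 (adjusted p = 0.0291; 6.82% of all genes higher and 0.412% lower). That call was lost when 6 h replicate 1, 2, 3 or 5 or 24 h replicate 3 or 4 was left out, with values of 1.41 to 1.62. In L over 24 h, KCS1 (1.80 ± 0.48), CER6 (1.68 ± 0.46) and MYB96 (1.39 ± 0.44) rose, 3 higher, and 0 were called lower (52.5% and 0.514% of all genes). Without adjustment CER1 had an edgeR p under 0.05 for a lower level, and the share of all genes under it is not given here. DESeq2 with Drosophila size factors called 0 lower. The MYB96 value was 1.25 without 24 h replicate 1 (adjusted p = 0.0559) and 1.24 without L replicate 2 (adjusted p = 0.0525), and neither passed. In the same steps on the TMM scale, 4 and 2 members were called higher and lower at 6 h over 1 h (21.2% and 23.3% of all genes), 1 and 3 at 24 h over 6 h (9.54% and 7.57%), and 1 and 2 in L over 24 h (5.98% and 4.65%). CER3 was among the 3 lower at 24 h over 6 h on that scale, at -0.55 ± 0.19 (adjusted p = 0.0446).

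Likeness of course was measured as the root-mean-square difference of the 4 log2 fold changes over dark. Among the 28 pairs of tested members, CER3 and LTPG1 were closest, at 0.19, and LTP1 and LTP2 farthest apart, at 7.77. Across 14197 nuclear genes with at least 10 CPM in some group, the gene nearest to KCS1 was CESA5, a cellulose synthase subunit (0.130), and the nearest to CER6 was MIPS3 (0.112). TAR2 was nearest to LTPG1 (0.053), ROP2 to CER3 (0.087), AT4G16447 to LTP1 (0.135) and BBX28 to MYB96 (0.170). The genes that fell had no close companions by this measure: SCPL7 was nearest to CER1 at 0.620, and ICL, the isocitrate lyase of the glyoxylate cycle, was nearest to LTP2 at 0.553, with -0.62 after 1 h, -3.95 after 6 h, -6.35 after 24 h and -5.60 in L.

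Among 20 other genes of wax synthesis and export, 17 were tested. At 6 h over dark 6 were higher, and in L 14 were higher, beside 21.4% and 84.9% of all tested genes, with list medians of 1.2 and 2.89 (log2) beside 0.56 and 2.35 for all tested genes. KCS9, another elongase, was called already at 1 h: it averaged 27.5 ± 14.7 spike-scaled CPM at 1 h against 7.62 ± 4.22 CPM in dark (SD, n = 5), a rise of 1.86 ± 0.50 (SE; adjusted p = 0.0218, edgeR), and rose by 5.54 ± 0.58 in L. CER26, a relative of the elongation factor CER2, rose by 5.02 ± 0.55 in L, KCS3 by 4.38 ± 0.51 and ABCG12, a transporter of wax export, by 4.21 ± 0.53. On the TMM scale 10 of the 17 were higher and 1 lower at 6 h (26.9% and 25.9% of all tested genes). In L 8 were higher and 2 lower on that scale (28.6% and 28.1%), and the medians were 0.64 and 0.56.

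Of 13 genes of cutin, the polyester of the cuticle, 11 were tested; 7 were higher at 6 h and all 11 in L, beside 21.4% and 84.9% of all tested genes, with medians of 1.72 and 2.84 beside 0.56 and 2.35. CYP86A2, a fatty acid hydroxylase, averaged 338 ± 113 CPM in L against 3.94 ± 1.83 CPM in dark (SD, n = 5), a rise of 6.43 ± 0.59 (log2, SE), and CYP77A6 and GPAT8 rose by 4.60 ± 0.65 and 4.52 ± 0.60. With TMM scaling 8 of the 11 were higher and 0 lower at 6 h (26.9% and 25.9% of all tested genes). In L 6 were higher and 1 lower on that scale (28.6% and 28.1%), and the medians were 1.22 and 0.65. Among 12 other lipid transfer proteins 8 were tested, with 4 higher at 6 h and all 8 higher in L, beside 21.4% and 84.9% of all tested genes, and medians of 1.16 and 3.38 beside 0.56 and 2.35. On the TMM scale 4 of the 8 were higher at 6 h and 5 in L, beside 26.9% and 28.6% of all tested genes. None of the 8 was lower, beside 25.9% and 28.1%. DIR1, a lipid transfer protein of systemic resistance, had reached 1030.0 ± 445 CPM at 6 h, against 30.7 ± 19.0 CPM in dark (SD, n = 5), and stood at 988 ± 726 CPM in L. LTPG2, a relative of LTPG1, rose by 3.57 ± 0.53 at 6 h and 4.72 ± 0.56 in L.

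Of 8 other regulators of wax and cuticle 7 were tested. At 1 h 2 were higher and 1 lower: MYB106 rose by 2.98 ± 0.72 (log2, SE; adjusted p = 0.00913, edgeR) and MYB16 by 1.57 ± 0.44 (adjusted p = 0.0297), both activators of cuticle formation, while DEWAX, a repressor of wax synthesis known to act in darkness, fell by 1.80 ± 0.49 (adjusted p = 0.0257) and averaged 14.5 ± 3.0 CPM, against 50.7 ± 29.2 CPM in dark (SD, n = 5). DEWAX is the third regulator called at 1 h and is named for that reason, outside the rule for named genes. Its fall did not last: it averaged 87.1 CPM at 6 h, 92.3 CPM at 24 h and 204 CPM in L. DEWAX was higher at 6 h than at 1 h by 2.58 ± 0.51 (adjusted p = 0.000541, edgeR). In L it was 2.01 ± 0.50 above dark (adjusted p = 0.000424, edgeR), and -0.18 on the TMM scale. MYB106 was low, with 23 counts over the dark libraries and 165 over those of 1 h. At 1 h 3.06% of all tested genes were higher and 0.994% lower. In L all 7 were higher, beside 84.9% of all tested genes, with a median of 2.18 beside 2.35 for all tested genes. On the TMM scale 1 was higher and 1 lower in L, beside 28.6% and 28.1% of all tested genes. MYB30 and CER7 rose by 2.37 ± 0.44 and 2.18 ± 0.47 in L on the spike scale and were at 0.01 and -0.13 on the TMM scale.

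Genes of the abscisic acid and drought response, the setting in which MYB96 is best known, were mixed. Of 12 genes 11 were tested, with 1 higher and 2 lower at 6 h (21.4% and 5.05% of all tested genes) and 8 higher and 2 lower in L (84.9% and 1.96%). The medians were 0.12 and 2.03, below the 0.56 and 2.35 of all tested genes. With TMM scaling 1 was higher and 3 lower at 6 h (26.9% and 25.9% of all tested genes). In L 2 were higher and 3 lower on that scale (28.6% and 28.1%), and the medians were -0.68 and -0.56. At 6 h over 1 h, where MYB96 fell, 1 was higher and 3 lower (13.6% and 3.12% of all tested genes), with a median of -1.14 beside 0.50. ABF3, a transcription factor of the pathway, fell by 2.96 ± 0.52 at 6 h over dark (log2, SE). In L its direction depended on the scaling: it was called higher on the spike scale, at 1.5 ± 0.49 (adjusted p = 0.00532, edgeR), and lower on the TMM scale, at -1.07 (adjusted p = 0.00216). RD22, a drought-induced gene, rose by 3.94 ± 0.59 in L and also passed on the TMM scale, at 1.37. PP2CA, a phosphatase of the pathway, rose by 3.44 ± 0.59 in L on the spike scale, and its TMM value of 1.00 did not pass (adjusted p = 0.0515). COR15A rose by 5.19 ± 0.93, but part of its reads may sit in an entry merged with another gene.

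**Figure D4:**
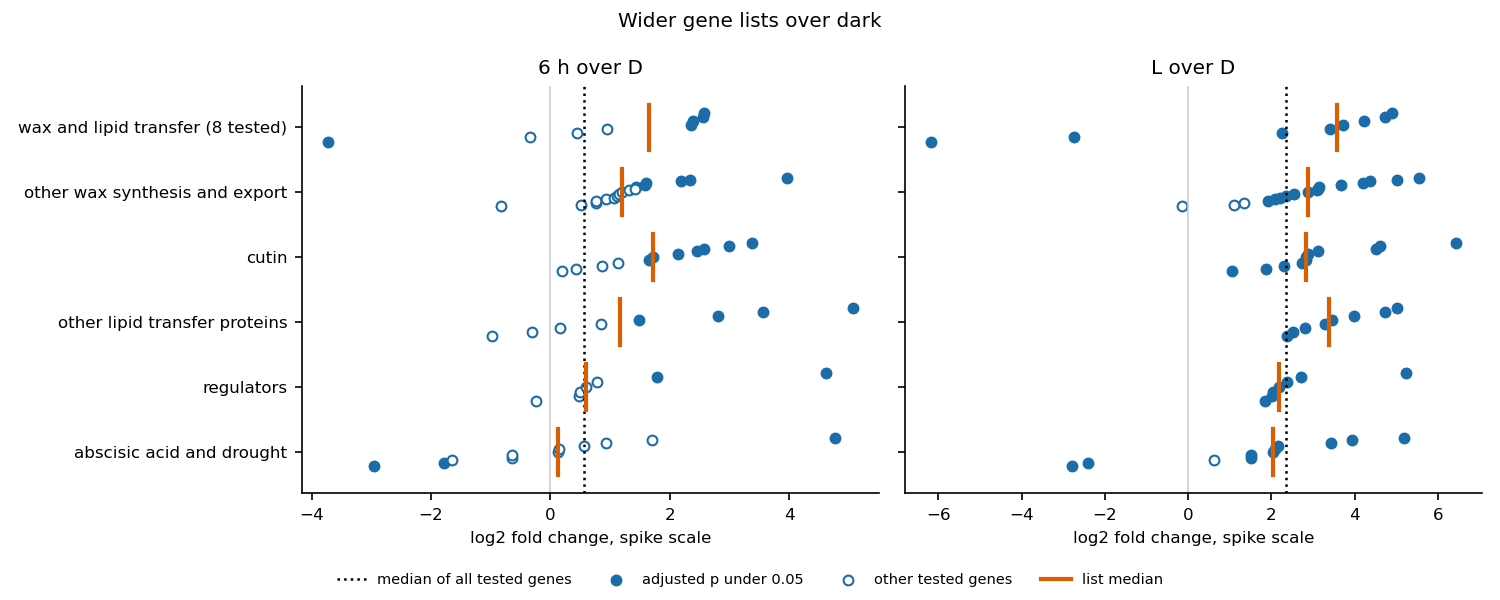
Log2 fold change over dark on the spike scale for each tested gene of 6 lists, at 6 h and in L. Filled points have an adjusted p under 0.05, the orange bar is the list median and the dotted line the median of all tested genes. LTP2 and CER1 are the 2 members left of 0 in L, and the 2 genes of the abscisic acid list left of 0 in L also passed.

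Markers of cell types were followed in the same libraries. The 7 epidermal markers summed to 53.8 to 287 spike-scaled CPM in dark (median 238), 78.6 to 343 after 1 h, 277 to 853 after 6 h (median 499), 214 to 489 after 24 h and 269 to 932 in L (median 507). PDF1 was the largest part of this sum, with means of 128 CPM in dark, 464 at 6 h, 175 at 24 h and 208 in L. From 6 h to 24 h the means of PDF1 and HDG11 fell, and those of ATML1, PDF2, HDG2, ACR4 and ALE2 rose. In L over dark 6 of the 7 were higher, beside 84.9% of all tested genes, with a median of 2.36 beside 2.35 for all genes. On the TMM scale 0 were higher and 1 was lower in L, beside 28.6% and 28.1% of all tested genes. Of 8 guard cell lineage markers 6 were higher at 6 h and 8 in L, beside 21.4% and 84.9% of all tested genes. On the TMM scale 7 and 5 of these markers were higher, beside 26.9% and 28.6%, and 1 was lower at 6 h, beside 25.9%. Their medians were 1.96 and 3.0 on the spike scale and 1.56 and 0.73 on the TMM scale, and their sum had a median of 361 CPM in L against 52.7 CPM in dark. The 6 vascular markers summed to 151 to 502 CPM in L, against 17.8 to 67.0 CPM in dark. In L over dark all 6 were higher on the spike scale and 3 on the TMM scale, beside 84.9% and 28.6% of all tested genes. Their medians were 3.04 and 0.91. The 7 root markers summed to 1.28 to 16.2 CPM in L, against 0.0559 to 0.421 CPM in dark, where 2 of the 7 had no count. Only 1 of them was tested, at 4.45 in L on the spike scale and 2.05 on the TMM scale. The 6 shoot meristem markers summed to 1.77 to 8.24 CPM in L, against 2.64 to 12.9 CPM in dark. Of the 5 tested, 0 were higher and 2 lower in L on the spike scale (84.9% and 1.96% of all tested genes). On the TMM scale 0 were higher and 5 lower (28.6% and 28.1%), and the medians were 0.03 and -1.96. The part of cell composition in the changes of the 10 genes was not tested.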

How the data were processed

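Counts per gene were deposited by the authors for 25 RNA-seq libraries (DNB-seq, stranded, read from both ends); per the submitters' processing notes the tools were HTSeq, Salmon 1.9.0 and R 4.3.2 and the build was TAIR10, with no role given for each. No source used here states the annotation or any earlier filter. If Salmon made the counts, they are rounded estimates. Entries naming no gene (0.119% to 0.741% of each library) were dropped. Gene positions, exon lengths and promoter sequence came from RefSeq's TAIR10.1; the count table holds no coordinates, all 10 genes matched by locus identifier, and no protein sequence was used here.

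Library size was the Drosophila sum, multiplied by 1 constant that sets the geometric mean to that of the Arabidopsis sums, so every fold change carries the error of the fly count. All 25 libraries entered 1 quasi-likelihood fit (glmQLFit, then glmQLFTest; edgeR 4.0.16, R 4.3.3). Low genes were first removed by filterByExpr on plain library sizes (min.count 10, min.total.count 15), and calls used Benjamini-Hochberg adjustment with a threshold of 0.05. The script was tested on simulated data. Levels per kilobase used exonic length. Ratios within a library added 0.5 to each count and were compared by exact two-sided permutation over 252 assignments, adjusted over 28 tests (4 ratios, 7 comparisons); the CER4 to CER1 ratio belongs to the 28 but is not given, since CER4 had no count in 15 libraries.

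Libraries with the same replicate number deviated together, every correlation being over 0.1, for 1 h, 6 h and 24 h against dark, 6 h against 1 h and 24 h against 6 h (lowest 0.212). For L, 3 of 5 correlations with dark and 4 of 5 with 24 h were over 0.1 (lowest 0.0316 and 0.0315). The same-numbered library was the best match for 2 of 5 libraries in 24 h against dark, 0 in L against dark and 2 in L against 24 h. It was the best match for 4 or 5 of 5 in the other comparisons. Alternatives were TMM over Arabidopsis or Drosophila genes, DESeq2 1.42.0, no filter, 2 groups alone, a replicate block, each set of replicates, a set term, each library left out and another offset. Named were all 10 genes, up to 4 called genes a list with the largest change at 6 h or in L over dark, and for each member the nearest genes in course. The genes and lists were chosen with earlier results of these data known.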

Additional observations from a re-analysis of the deposited data

Results flagged for a closer look

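MYB96 at 1 h stood out in replicate 2, with 52.8 spike-scaled CPM, while the other 4 libraries of the group lay between 16.5 and 22.7 CPM; the gap took 0.829 of the group's range. In raw counts this library held 1068, within the group's 683 to 1322, and KCS1, CER6, CER3 and LTPG1 also had their highest 1 h level in it. The log2 ratio of CER6 to KCS1 at 24 h was 2.07 in replicate 5 and 1.22 to 1.45 in the other 4 libraries, a gap of 0.732 of the range. Among 55 groups of 5 libraries checked, 2 stood out, and chance alone flags about 1 in 20. The part of the fly count in the first of these was not tested.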

How the results depend on the processing

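Against dark from 6 h on, the 4, 5 and 6 members called higher at 6 h, 24 h and in L were also 4, 5 and 6 when any 1 library was left out, and LTP2 was called lower in all 3. In these fits 2995 to 5738, 8233 to 11737 and 16908 to 18002 of all genes were called higher. With TMM over Arabidopsis genes, 2 were higher at 1 h, 2 lower at 6 h, 2 lower at 24 h, 3 lower at 24 h over 6 h, and 1 higher and 2 lower in L over 24 h; DESeq2 with median-ratio size factors gave the same 6 counts. With the replicate block and TMM these were 3, 2, 3, 2, 1 and 2, and 2 were higher at 24 h over 6 h. For all 20615 tested genes the 6 counts were 1844, 5337, 5735, 1560, 1232 and 959 with TMM. They were 2001, 5502, 5834, 1861, 1660 and 1234 with median-ratio factors. The block and TMM gave 2318, 5986, 6351, 2390, 1816 and 1614, and 2762 higher at 24 h over 6 h. The replicate block alone, with the replicate number as a pairing, gave 2 higher and 1 lower at 24 h over 6 h. In L over 24 h, where not every same-numbered pair deviated together, it gave 5 higher and 2 lower (CER1, LTPG1, LTP1 and LTP2 were added). The same counts for all 20615 genes were 3849 and 184, and 14464 and 125. The block changed no other call than these and those given with the results. A paired sign-flip test of ratios cannot go below 0.0625. With replicates 1 and 2 alone, 2 were higher at 1 h, 1 higher and 1 lower at 6 h over 1 h, 0 higher at 24 h over 6 h, and 5 higher and 2 lower in L over 24 h. The same counts for all 21151 genes tested there were 1758, 639 and 223, 254, and 9453 and 152. With replicates 3 to 5 alone, 2 were lower at 24 h, 1 lower at 6 h over 1 h, 1 lower at 24 h over 6 h and 0 higher in L over 24 h. For the 20525 genes tested there the counts were 696, 323, 39 and 315. A term for the set gave 1 lower at 24 h over 6 h, and 5 higher and 1 lower in L over 24 h. For all 20615 genes it gave 122, and 11875 and 116. A fit of the 2 groups alone gave 2 lower at 24 h, 2 higher and 2 lower at 24 h over 6 h, and 5 higher and 1 lower in L over 24 h. Among all genes these counts were 751 of 19285, 3627 and 211 of 19021, and 13841 and 71 of 18867. DESeq2 with Drosophila size factors called 1 higher at 1 h and 2 higher and 1 lower at 24 h over 6 h, and TMM over Drosophila genes 1 lower in L over 24 h. Among all 20615 genes these counts were 823, 2532 and 121, and 104. Leaving out 1 library gave 3 to 5 higher at 6 h over 1 h (5 without 1 h replicate 2), 0 to 1 higher at 24 h over 6 h, and 0 to 1 lower in L over 24 h (1, CER1, without 24 h replicate 4 or 5 or L replicate 3). Among all genes, 20821 to 20903 tested, these ranges were 1339 to 4595 (4595 without 1 h replicate 2), 585 to 1945, and 63 to 112.

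Directions turned as follows, the cause not being tested except that TMM and median-ratio scaling remove the shared rise of plant genes. CER1 at 6 h over dark was -0.16 with TMM, -0.21 with the block and TMM and -0.16 with median-ratio factors, and -0.07 to 0.78 with 1 library left out. MYB96 was -0.34, -0.39 and -0.34 in the same 3 fits at 24 h and -0.20, -0.20 and -0.19 in L; it was 0.69 at 6 h in replicates 1 and 2 alone, where CER1 at 24 h was 0.68. CER3 at 24 h over 6 h was -0.55, -0.55 and -0.54, -0.05 with TMM over Drosophila genes and -0.14 to 0.41 with 1 library left out. LTPG1 in L over 24 h was -0.08, -0.05 and -0.08. No ratio turned. In replicates 1 and 2 alone, CER3 to CER1 differed by 2.90 at 24 h over dark, 6.88 in L over dark, 0.15 at 24 h over 6 h and 3.98 in L over 24 h, CER6 to KCS1 by -0.53 at 6 h over dark, -0.14 in L over dark and 0.73 at 6 h over 1 h, and LTP2 to LTP1 by -13.75 in L over dark and -4.68 in L over 24 h, for which replicates 3 to 5 alone gave -10.32 and -0.84. No test could pass in these sets, whose smallest exact p is 0.333 and 0.1. With 1 library left out, CER6 to KCS1 differed by -0.76 to -0.44 in L over dark (passing without D replicate 1), 0.23 to 0.53 at 6 h over 1 h (passing without 6 h replicate 4) and 0.54 to 0.84 at 24 h over 6 h. Depth limits CER4 and WSD1, with at most 6 counts a library, and CER1 in L, with 9 to 40.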
